A study of Mus musculus with 34 samples.

Results

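The 41 genes described here are interferon-stimulated genes, taken as a list of gene symbols that spans the roles of the response, with Rigi also read under its older symbol Ddx58. Each gene stood for 1 probe, the one with the highest mean signal. Of the 41 genes, 39 had a named probe on the array, out of 19057 genes with one, and Ifi44 and Herc6 were not analysed here. Total RNA was hybridised to 34 Illumina MouseWG-6 v2 arrays, which carry bead-bound probes against mouse transcripts, 16 of them from C17.2 cells and 18 from primary neural stem cells (NSC). C17.2 cells are neural stem cells of the mouse that were immortalised and grow as a line, whereas the NSC were taken from E13.5 mouse telencephalon. Cells of both types had been transduced with retroviral vectors that carried STAT3C (a constitutively active mutant of STAT3), CEBPB, STAT3C together with CEBPB, or, as the control, the empty pBabe vector. STAT3 and C/EBPβ are transcription factors known for driving mesenchymal genes in glioma, and the design asks what each does to gene expression alone and together.

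Each C17.2 group had 4 arrays, and the NSC groups had 4 STAT3C, 4 CEBPB, 5 STAT3C+CEBPB and 5 control arrays. On NSC arrays that received both vectors, the source label names STAT3 while the description and the transduction label name STAT3C, which was followed here. The labels do not say which arrays came from separate cultures, so p-values speak only of the spread among arrays, which may be technical. They also do not give the age of the cultures, the time after transduction or the share of cells that took up a vector, and in such bulk RNA fewer cells of a type and less RNA per cell cannot be told apart.

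Interferons are secreted proteins that cells release on sensing viral nucleic acid. Type I interferons bind a receptor of the chains IFNAR1 and IFNAR2, whose kinases JAK1 and TYK2 phosphorylate STAT2, which joins IRF9 in a complex that binds the interferon-stimulated response element (ISRE) of target promoters. Type II interferon signals through its own receptor to genes with the GAS element, a site that phosphorylated STAT3 can bind. The genes so induced encode sensors of viral RNA, proteins that block viral entry, translation and budding, the ubiquitin-like ISG15 and its enzymes, and GTPases that attack the vacuoles of intracellular pathogens. Neural cells of all kinds can mount this response, and stem cells are known to hold some of its genes at a high level without interferon.

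Promoters were searched for the elements through which interferon, STAT3 and C/EBPβ are known to act. A RefSeq promoter of 300 bases on GRCm38.p6, which reaches from 250 bases before the start of transcription to 50 after it, was matched for 31 of the 41 members. The ISRE core, searched on both strands as GAAANNGAAA, was present in 16 of these 31 members (51.6%), against 3.99% of the 27025 genes of the table. The GAS element, searched as TTCNNNGAA, was present in 8 members (25.8%), against 9.55% of all genes. The C/EBP element, searched as TTGCNNAA, was present in 1 member, Gbp3 (3.23%), against 12.2% of all genes. A match is a run of letters and not a shown binding site, and a member without one may hold it outside this window. The promoters printed here are those of members on which the values below turn, and they differ in how many ISRE cores they hold. Each runs 5′ to 3′ along the gene's own strand, and capitals mark the ISRE core on either strand. Ifit3 (chr19:34583279-34583578, plus strand) holds 2 separate cores, and Isg15 (chr4:156200769-156201068, minus strand) holds 3 that overlap. Rsad2 (chr12:26456403-26456702, minus strand) and Igtp (chr11:58199306-58199605, plus strand) hold 1 core each, and Igtp also holds 1 GAS element. Lgals3bp (chr11:118401910-118402209, minus strand) holds 0 cores.
Ifit3: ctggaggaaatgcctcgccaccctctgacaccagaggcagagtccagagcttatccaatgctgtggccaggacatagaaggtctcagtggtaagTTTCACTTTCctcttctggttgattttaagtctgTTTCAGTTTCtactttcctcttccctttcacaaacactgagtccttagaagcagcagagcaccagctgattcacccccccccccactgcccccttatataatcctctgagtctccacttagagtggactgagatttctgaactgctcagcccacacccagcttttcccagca
Isg15: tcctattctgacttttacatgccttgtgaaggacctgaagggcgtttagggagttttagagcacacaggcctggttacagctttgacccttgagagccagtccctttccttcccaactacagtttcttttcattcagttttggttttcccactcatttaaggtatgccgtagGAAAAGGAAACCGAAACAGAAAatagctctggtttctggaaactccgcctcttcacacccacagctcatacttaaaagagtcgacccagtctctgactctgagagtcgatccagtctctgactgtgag
Rsad2: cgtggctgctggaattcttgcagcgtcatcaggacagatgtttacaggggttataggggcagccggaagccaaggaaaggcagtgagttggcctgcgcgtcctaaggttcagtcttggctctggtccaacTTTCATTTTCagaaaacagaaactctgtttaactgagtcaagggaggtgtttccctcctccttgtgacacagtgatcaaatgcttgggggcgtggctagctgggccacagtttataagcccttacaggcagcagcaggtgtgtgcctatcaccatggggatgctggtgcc
Igtp: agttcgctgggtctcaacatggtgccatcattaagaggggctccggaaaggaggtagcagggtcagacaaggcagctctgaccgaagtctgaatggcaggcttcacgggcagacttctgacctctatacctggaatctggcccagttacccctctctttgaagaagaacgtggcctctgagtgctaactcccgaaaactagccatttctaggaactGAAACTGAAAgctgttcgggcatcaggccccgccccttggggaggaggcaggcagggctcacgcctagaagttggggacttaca
Lgals3bp: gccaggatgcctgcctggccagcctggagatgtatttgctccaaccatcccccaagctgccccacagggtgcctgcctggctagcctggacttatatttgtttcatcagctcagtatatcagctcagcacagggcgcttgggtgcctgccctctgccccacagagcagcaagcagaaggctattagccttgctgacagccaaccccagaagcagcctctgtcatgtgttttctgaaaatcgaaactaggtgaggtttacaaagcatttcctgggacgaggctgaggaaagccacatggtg

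Values are log2 of the normalised probe signal, on a scale set separately in each cell type, and a probe counts as detected on an array where its detection p was below 0.05. The share of probes detected was 33.8% to 35.9% in C17.2 and 36.3% to 41.7% in NSC. A gene was tested in a cell type where at least 4 of its arrays detected the probe, which held for 23 members in C17.2 (of 9699 genes) and 30 in NSC (of 10858). The arrays lay on 6 slides. Slide 1 held the 4 C17.2 controls alone, so in every C17.2 comparison with control the vector and the slide cannot be told apart. NSC slides held several groups each and entered the fit as a term. Of 10 neural stem and radial glia markers, C17.2 arrays detected 4 to 6 and NSC arrays 6 to 8, with Fabp7, Hes5, Pax6 and Msi1 not detected on any C17.2 array. Several arrays stood apart. The STAT3C+CEBPB replicate 4 of C17.2 and the control replicate 5 of NSC stood apart in the members themselves, and results that rest on them are given with and without them. The replicate 4 arrays of the 4 NSC groups lacked Xist and lay at -45.1 to -48.9 on the first principal component, against -14.6 to 21.5 for the other NSC arrays.

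In C17.2 cells 0 of the 23 tested members passed the adjusted threshold of 0.05 in limma's moderated test in any of the 3 comparisons with control, although the median member was higher in each. The median log2 change was 0.28 with STAT3C, 0.37 with CEBPB and 0.78 with STAT3C+CEBPB, against -0.01, 0.01 and 0.01 over all genes tested. With STAT3C 17 of 23 members had a positive change, with CEBPB 20 of 23, and with both vectors 23 of 23, against 47.8%, 51% and 51% of all genes. Among the 23, Trim25, Dhx58 and Rtp4 were detected on 0 controls and entered the test through transduced arrays where they are high, so the filter set their direction and nothing is read from these counts. The share of all genes that passed was 0.0103% with STAT3C, 1.62% with CEBPB and 0.577% with both vectors. At an unadjusted p below 0.05 the members higher than control numbered 3, 3 and 6 of 23 in the same order, against 6.82%, 12.1% and 9.67% of all genes, and 0 members were lower.

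**Figure D1:**
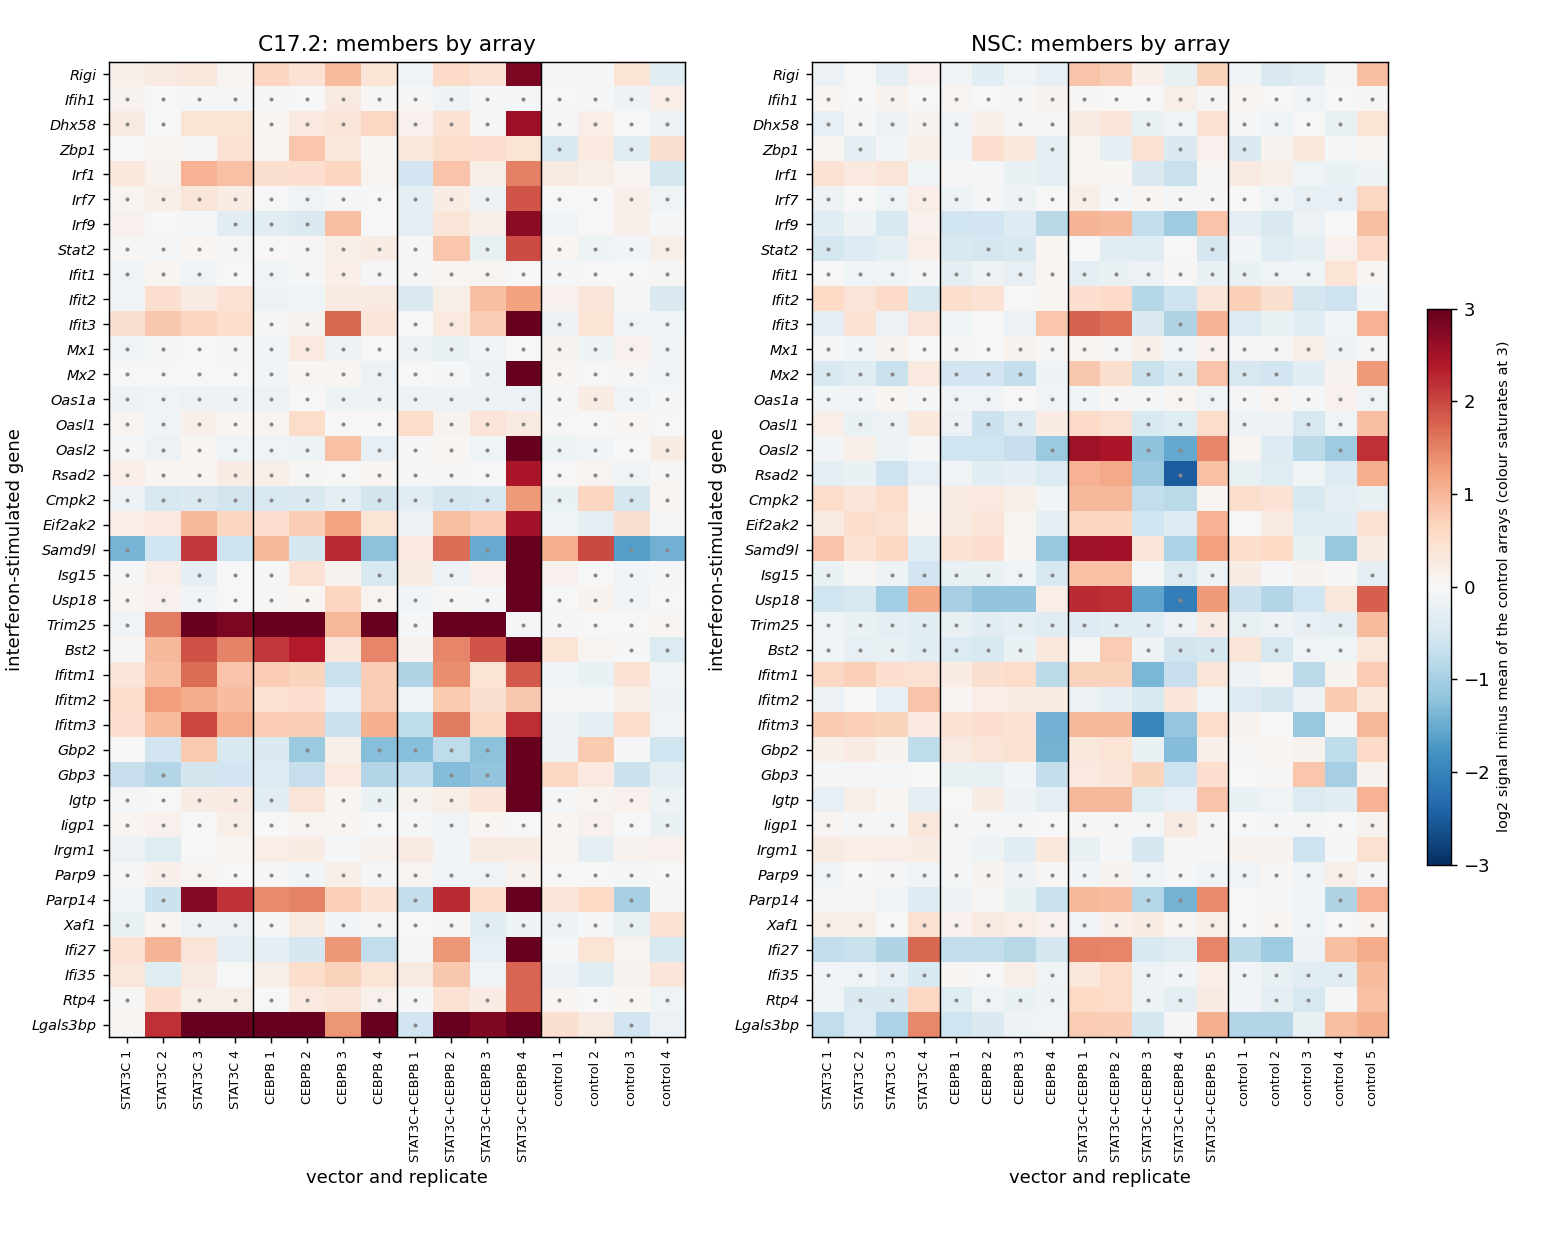
Heat map of the 39 members with a probe (down the page, by role) on every array (across, grouped by vector, C17.2 and NSC side by side), coloured by the log2 signal minus the mean of the controls of the same cell type, with the colour saturating at 3 and a grey dot where the probe was not detected. In C17.2 the STAT3C+CEBPB replicate 4 array is high for most members, and in NSC the control replicate 5 and the STAT3C+CEBPB replicates 1, 2 and 5 are the higher arrays.

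Among the members tied to viral sensing, Trim25, a ubiquitin ligase that acts on the RNA sensor RIG-I, stood furthest from control with CEBPB in C17.2. Its log2 signals were 4.31, 5.94, 8.53 and 7.24 with STAT3C, 8.62, 7.72, 5.42 and 8.83 with CEBPB, and 4.36, 8.32, 8.26 and 4.37 with both vectors, against 4.38, 4.40, 4.40 and 4.47 in controls. The probe was detected on 3 STAT3C arrays, 4 CEBPB arrays and 2 arrays with both vectors, and on 0 controls. Trim25 was at least 6.09-fold higher with CEBPB (mean log2 7.65 against a measured 4.41, adjusted p = 0.0947). The same calculation gave 2.76-fold with STAT3C (6.51 against 4.41, adjusted p = 0.413) and 2.43-fold with both vectors (6.33 against 4.41, adjusted p = 0.347). These last folds are not strict bounds, because the undetected arrays of those groups, which lay at the control level, count at their measured signal. Only the CEBPB arrays did not overlap the controls, and the highest array of each transduced group was at 8.32 or more. The first principal component of the C17.2 arrays, computed without the interferon lists, moved with these values. The arrays with Trim25 at 4.31, 4.36 and 4.37 lay at -37.5, -24.6 and -20.5 on it, the one at 5.42 at -22.2, and the controls at -45.1 to -21, whereas arrays at 34.4 and above had Trim25 at 7.72 or more. The summed signal of 8 fibroblast, pericyte and meningeal markers also moved, at 4197 to 16937 with STAT3C, 3492 to 11688 with CEBPB and 2955 to 24512 with both vectors, against 3652 to 4794 in controls. The part of that component and of these markers in the result was not tested.

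Rigi, the sensor that Trim25 acts on, averaged 5.70 ± 0.11 with STAT3C, 6.11 ± 0.25 with CEBPB and 6.44 ± 1.30 with both vectors, against 5.51 ± 0.31 in controls (SD, n = 4 each). Its largest difference from control, 0.93 with both vectors (SE 0.44), did not pass (adjusted p = 0.28). Dhx58, a related helicase, was detected on 0 controls and on 1 of 4 arrays with both vectors, where it was 7.18. The calculated fold of 1.28 (means 5.40 against a measured 4.62, adjusted p = 0.318) rests on this 1 array and is not a strict bound. It is not read as a change of the group. Ifih1, the sensor of long double-stranded RNA, was not detected on any C17.2 or NSC array. Zbp1, a sensor of Z-form nucleic acid, was 5.61 on that array, within the range of its group.

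**Figure D2:**
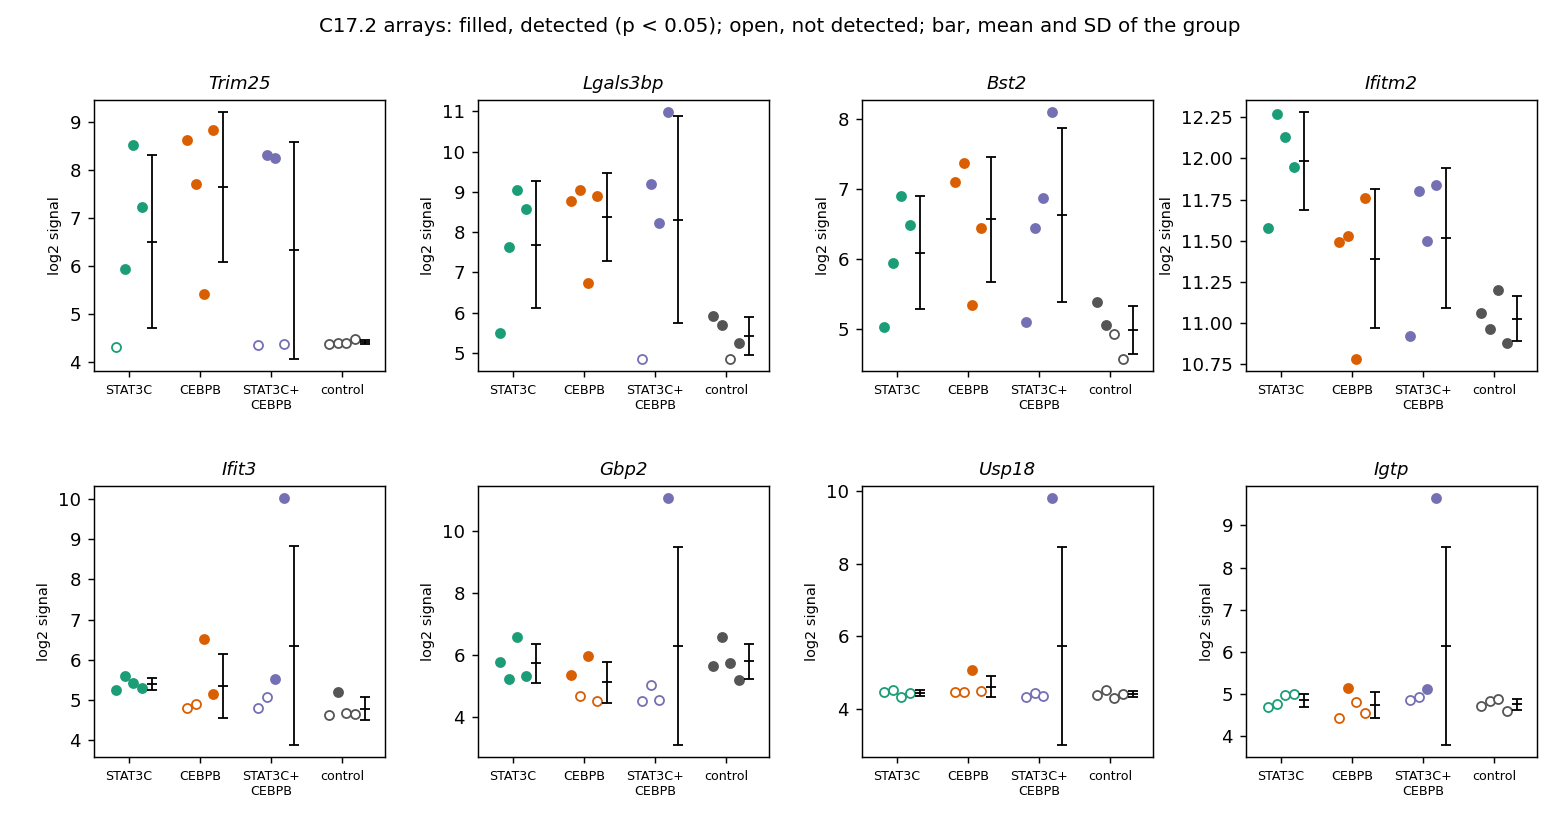
Log2 signals of 8 members on the 16 C17.2 arrays, by vector (filled points detected, open points not detected, bars the group mean and SD). Trim25, Lgals3bp and Bst2 spread widely within each transduced group, and Ifit3, Gbp2, Usp18 and Igtp have 1 high array in the STAT3C+CEBPB group.

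Lgals3bp, which encodes a secreted galectin-binding glycoprotein, had the largest change of the members with STAT3C and with both vectors. Its log2 signals were 5.49, 7.63, 9.06 and 8.58 with STAT3C, 8.78, 9.06, 6.75 and 8.91 with CEBPB, and 4.85, 9.20, 8.23 and 10.98 with both vectors, against 5.92, 5.70, 4.86 and 5.25 in controls. All 4 CEBPB arrays lay above the controls, while the lowest STAT3C array lay among them and the lowest array with both vectors just under them. The log2 change was 2.26 with STAT3C (SE 1.02, 4.78-fold, adjusted p = 0.376), 2.94 with CEBPB (SE 1.02, 7.69-fold, adjusted p = 0.114) and 2.88 with both vectors (SE 1.02, 7.37-fold, adjusted p = 0.179). Its promoter is the one printed above without an ISRE core. The arrays low for Lgals3bp within their group, STAT3C replicate 1, CEBPB replicate 3 and STAT3C+CEBPB replicate 1, were also the lowest of their groups for Trim25. STAT3C+CEBPB replicate 4 was the highest array for Lgals3bp and had no detectable Trim25.

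Bst2, or tetherin, which holds budding virions at the cell surface, had log2 signals of 5.03, 5.95, 6.90 and 6.48 with STAT3C, 7.10, 7.37, 5.35 and 6.45 with CEBPB, and 5.10, 6.45, 6.87 and 8.10 with both vectors, against 5.39, 5.06, 4.93 and 4.57 in controls. In each transduced group 1 array fell among the controls. The log2 change was 1.10 (SE 0.56, adjusted p = 0.425), 1.58 (SE 0.56, adjusted p = 0.119) and 1.65 (SE 0.56, adjusted p = 0.168) in that order of vectors. Parp14, an ADP-ribosyltransferase, had log2 signals of 5.35, 4.81, 8.20 and 7.61 with STAT3C, 6.86, 6.94, 6.16 and 5.89 with CEBPB, and 4.73, 7.68, 5.97 and 9.08 with both vectors, against 5.81, 6.05, 4.44 and 5.48 in controls. The Parp14 arrays overlapped in each comparison, and its changes of 1.05, 1.02 and 1.42 (SE 0.85 each) did not pass.

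The IFITM genes encode small membrane proteins that block viral fusion, and they were bright on every array. Ifitm2 had log2 signals of 11.58, 12.27, 12.13 and 11.95 with STAT3C, 11.49, 11.53, 10.78 and 11.76 with CEBPB, and 10.92, 11.80, 11.50 and 11.84 with both vectors, against 11.06, 10.96, 11.20 and 10.88 in controls. The STAT3C arrays lay above all controls, and the other groups overlapped them. The STAT3C change of 0.96 (SE 0.23, 1.94-fold) had the smallest adjusted p of any member in that comparison, 0.191, and its change with both vectors departed from the sum of the single changes by -0.83 (SE 0.33, adjusted p = 0.42). Ifitm3 had a STAT3C change of 1.13 (SE 0.53, adjusted p = 0.391), with arrays at 12.09 to 13.58 against 11.30 to 12.13 in controls, and Ifitm1 one of 0.95 (SE 0.49, adjusted p = 0.432). With both vectors Ifitm3 ranged from 10.82 to 13.81, wider than the controls on both sides.

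Ifit3, which binds viral RNA together with its relative Ifit1, was the other member whose STAT3C arrays lay above the controls. Its log2 signals were 5.26, 5.60, 5.43 and 5.31 with STAT3C, 4.81, 4.89, 6.51 and 5.15 with CEBPB, and 4.79, 5.07, 5.53 and 10.03 with both vectors, against 4.62, 5.20, 4.67 and 4.65 in controls. Most values are close to the detection limit, and the arrays at 6.51 and 10.03 are the exceptions. The STAT3C change was 0.61 (SE 0.83, adjusted p = 0.78). Members whose arrays all lay above the controls thus numbered 2 with STAT3C (Ifitm2 and Ifit3), 2 with CEBPB (Trim25 and Lgals3bp) and 0 with both vectors, of 23 each, against 4.57%, 8.11% and 4.72% of all genes.

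The STAT3C+CEBPB group of C17.2 held 1 array, replicate 4, on which most members were high. Its median member lay 2.56 above the control mean, against -0.14 to 0.78 on the other 15 arrays. It had 19 of 23 members more than 1 above the control mean, while 4.78% of all genes were so there, and it was the highest array of its group for 20 of 23 members (87%), against 27% of all genes. It detected 30 of the 39 members with a probe, against 13 to 24 on the other C17.2 arrays. A further list of interferon-stimulated genes, of which 30 of 60 were tested, had a median of 1.25 on this array, against -0.07 to 0.61 on the others. Across the 9625 tested genes outside the interferon lists this array correlated best with CEBPB replicate 3 (r = 0.9712). It lay at -20.5 on the first principal component, beside that array and the controls.

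The members high on this array came from every role, but not every member took part. Among the transcription factors Irf9, the partner of STAT2, was 8.07 there and 5.02 to 5.50 on the STAT3C arrays and controls. Irf1 was 11.47, with 9.42 to 10.23 in controls. Among the antiviral effectors Eif2ak2, the kinase PKR that halts translation, was 11.76, with 8.94 to 9.72 in controls. Isg15, the ubiquitin-like modifier itself, was 8.23, with 4.93 to 5.12 in controls. Ifi27, a small mitochondrial interferon-induced protein, was 12.45, with 8.71 to 9.60 in controls, and Samd9l, a cytoplasmic restriction factor, was 10.29, with 4.63 to 8.25 in controls. Of the GTPases, Gbp2 was 11.07 and Gbp3 10.26, with 5.21 to 6.58 and 5.27 to 6.54 in controls, whereas Irgm1 lay between 12.96 and 13.59 on all 16 arrays. Trim25 was not detected on this array, and Zbp1 was not raised on it.

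A further 16 members with a probe were detected on too few C17.2 arrays to be tested, and 7 of them were highest on this same array by more than 1 above the next. These 7 were picked out after their values were seen. Usp18, which removes ISG15 from proteins and dampens the interferon receptor, was 9.81 there and 4.31 to 5.06 on the other 15 arrays. Igtp, a GTPase of parasite vacuoles, was 9.65 there and 4.44 to 5.14 elsewhere, and Oasl2, of the oligoadenylate synthase family, was 9.49 and 4.36 to 5.50. Mx2 was 8.0 there, Rsad2 (viperin) 6.91, Stat2 6.54 and Irf7 6.41, with highest values elsewhere of 4.58, 4.70, 5.42 and 4.88. The members detected on 0 C17.2 arrays were Ifih1, Ifit1, Mx1, Oas1a, Iigp1 and Parp9, and so not on this array either. Oasl1 and Xaf1 were detected on 2 arrays each, and Cmpk2 reached 6.24 on this array.

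Without replicate 4 the C17.2 comparison of both vectors with control had a median member change of 0.32 over the 21 members then tested, against 0.78 with it. Dhx58 and Rtp4 were not among the 21. Of these 21 members, 19 had a positive change, against 50.7% of all genes, and 0 passed. At an unadjusted p below 0.05, 2 were higher and 2 lower. Trim25, detected on 0 controls, was still among the 21, and nothing is read from these counts. The comparison with STAT3C alone had a median of -0.04 without replicate 4 and 0.50 with it, and the comparison with CEBPB alone -0.21 without it and 0.40 with it. Gbp2 had a change of -1.08 without it (SE 0.40, adjusted p = 0.18) and 0.50 with it, and Gbp3 one of -1.06 without it (SE 0.30, adjusted p = 0.119) and 0.29 with it. Without it the change was 1.99 for Lgals3bp (SE 0.96, adjusted p = 0.27) and 1.15 for Bst2 (SE 0.52, adjusted p = 0.247). Within the group the median SD of the members was 1.30 with all 4 arrays, while that of all genes was 0.31.

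**Figure D3:**
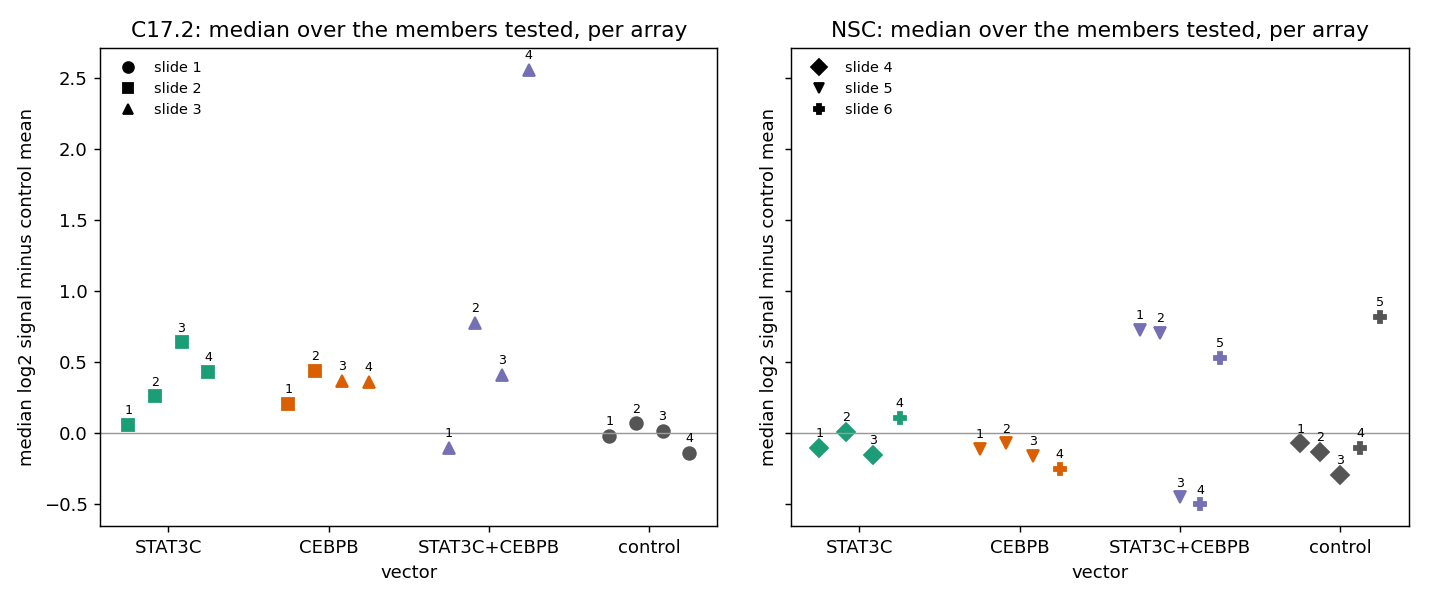
Median over the tested members of the log2 signal minus the control mean, 1 point per array, by vector in C17.2 (23 members) and NSC (30 members), with the marker showing the slide and the number the replicate. The C17.2 STAT3C+CEBPB replicate 4 lies at 2.56, and the NSC control replicate 5 lies at 0.82, above the other controls.

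Markers of immune cells were read on the same arrays. Of 12 microglia and macrophage markers, 10 had a probe, and their summed signal was 76.1 to 99.9 with STAT3C, 81.6 to 93 with CEBPB and 85.3 to 105 with both vectors, where replicate 4 had 99.8, against 83.6 to 96.8 in controls. Cx3cr1, Ptprc, Tyrobp, C1qa, C1qb, C1qc and Itgam were not detected on any C17.2 array. Of the 10 markers, arrays detected 0 to 1 with STAT3C, 0 to 1 with CEBPB and 0 to 2 with both vectors, against 0 in controls. Of 7 lymphoid and dendritic markers, 5 had a probe, and replicate 4 detected 0 of them, with a sum of 59.1 against 57.1 to 59.4 over its group and 42.1 to 57.5 in controls. On both sums replicate 4 lay above every control and within its group, and the part of these markers in the result was not tested.

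The transduced C17.2 groups were also set against each other. With both vectors against STAT3C alone, 0 of 23 members passed in limma and 0 had an unadjusted p below 0.05, while 0.186% of all genes passed and 9.83% had such an unadjusted p. With both vectors against CEBPB alone, 0 of 23 passed and 0 had an unadjusted p below 0.05, while 0% of all genes passed and 4% had such an unadjusted p. With CEBPB against STAT3C, 0 of 23 passed and 1, Ifitm2, had an unadjusted p below 0.05 (change -0.59, SE 0.23, adjusted p = 0.447), while 0.227% of all genes passed and 9.19% had such an unadjusted p. Rigi was the 1 member of 23 whose CEBPB arrays, at 5.91 to 6.45, all lay above the STAT3C arrays, at 5.58 to 5.82, against 3.28% of all genes. On slide 2, which held arrays of both single vectors, the median member change of CEBPB against STAT3C was 0.09, and on slide 3 that of both vectors against CEBPB was 0.36. The change with both vectors departed from the sum of the single changes by a median of 0.13, and 0 of 23 members passed (0% of all genes), with 2, Trim25 and Ifitm2, below an unadjusted p of 0.05 (10.8% of all genes). Trim25 departed by -3.42 (SE 1.47, adjusted p = 0.441), a fitted value in which the undetected controls count at their measured level.

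In NSC 0 of the 30 tested members passed in limma in any comparison with control. The median log2 change was 0.03 with STAT3C, -0.54 with CEBPB and -0.15 with both vectors, against 0.02, 0.02 and 0.01 over all genes. With STAT3C 16 of 30 members had a positive change (54.5% of all genes), and with both vectors 8 of 30 (51%), or 20 of 30 with a median of 0.19 without STAT3C+CEBPB replicate 4. With CEBPB 27 of 30 had a negative change, against 46% of all genes. At an unadjusted p below 0.05, 8 of 30 were lower, against 3.68%. That count was 3 without control replicate 5 and 0 with no slide term. Without STAT3C+CEBPB replicate 1, 2 or 4 it was 5, 6 and 4, and without replicate 3 or 5 it was 12 and 11. The share of all genes at that p is given for the full fit only. The counts at that threshold were 0 with STAT3C (5.14% of all genes) and 2 with both vectors (7.74% of all genes lower), where Ifitm2 (change -0.53, SE 0.17, adjusted p = 0.109) and Stat2 (change -0.48, SE 0.18, adjusted p = 0.167) were lower. The share of all genes that passed was 0% with STAT3C, 0.0276% with CEBPB and 2.84% with both vectors. Slide 6 alone held both CEBPB and control arrays, so the slide-adjusted changes of CEBPB and of both vectors against control rest on it. Within slide 6 the median member change was -0.49 with CEBPB and -0.35 with both vectors. These values come from 1 CEBPB array, replicate 4, which lacked Xist, and from 2 arrays with both vectors, against 2 controls of which 1 was replicate 5. The other 9 members with a probe were not tested in NSC. Ifih1, Mx1, Oas1a, Iigp1, Parp9 and Xaf1 were not detected on any array, Irf7 and Trim25 only on control replicate 5, and Ifit1 only on control replicate 4.

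The comparison of both vectors with CEBPB alone gave the 1 member of 30 called in NSC, against 6.47% of all genes. Ifi27 rose with both vectors, to log2 signals of 12.20, 12.17, 10.25, 10.35 and 12.18, against 9.97, 10.01, 9.89 and 10.18 with CEBPB. All 5 arrays lay above the CEBPB arrays, replicates 1, 2 and 5 far above and replicates 3 and 4 barely. The slide-adjusted change was 1.43 (SE 0.39, 2.7-fold, adjusted p = 0.037). It was 1.58 within slide 5 and 1.09 within slide 6, and a second Ifi27 probe gave 1.40. The call was lost, with adjusted p of 0.0503 to 0.123, without any one of STAT3C+CEBPB replicates 1, 2 or 5, CEBPB replicates 1, 2 or 3, or STAT3C replicates 1 or 2. It was also lost, for Ifi27, with median scaling (adjusted p = 0.0711), the authors' deposited values (0.0514), no detection filter (0.068), slide as a random block (0.0649) and no slide term (0.282). The other NSC groups had Ifi27 at 9.97, 10.05, 9.81 and 12.45 with STAT3C and at 9.92, 9.65, 10.55, 11.63 and 11.83 in controls, so high arrays also occurred in those groups. Against control the Ifi27 change was -1.97 with CEBPB (SE 0.55, adjusted p = 0.23) and -0.54 with both vectors (SE 0.50, adjusted p = 0.655). The plain group means were 11.43 with both vectors and 10.71 in controls, of the opposite sign to the slide-adjusted change.

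**Figure D4:**
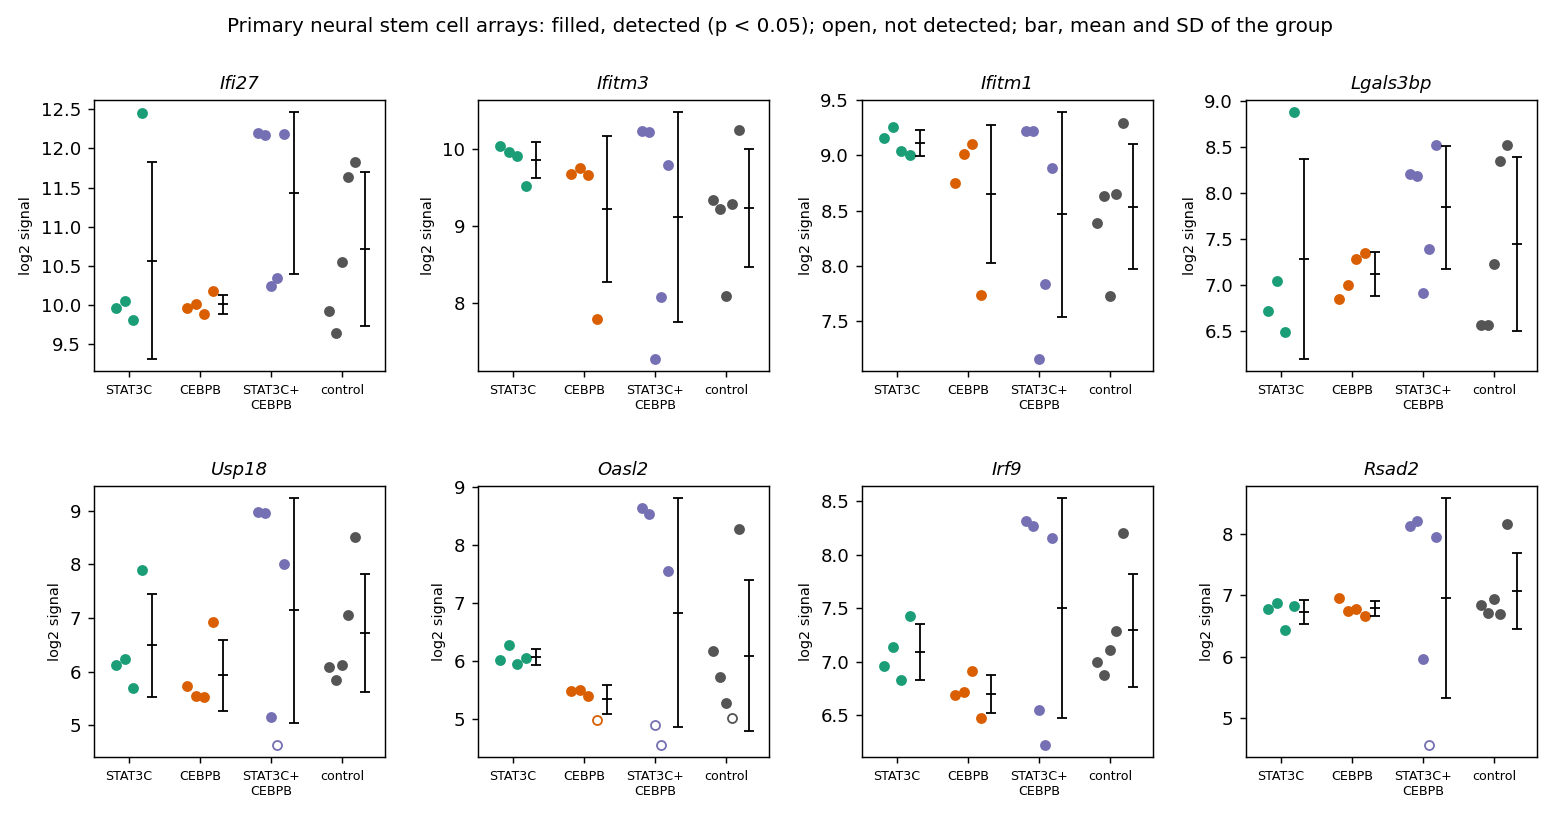
Log2 signals of 8 members on the 18 NSC arrays, by vector (filled points detected, open points not detected, bars the group mean and SD). Ifi27, Usp18, Oasl2, Irf9 and Rsad2 divide the STAT3C+CEBPB arrays into higher and lower ones, and the highest control is replicate 5.

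In the same comparison the median member change was 0.33 and 24 of 30 members had a positive change (47.5% of all genes). Of 30 members, 10 were higher and 1 lower at an unadjusted p below 0.05, against 10.8% and 11.4% of all genes. Without STAT3C+CEBPB replicate 1, 2 or 5, 5 were higher, with medians of 0.16, 0.16 and 0.18. Without replicate 3, 11 were higher (median 0.56), and without replicate 4, 13 were (median 0.53). The shares of all genes at that p are given for the full fit only. The share of all genes whose arrays lay wholly above the CEBPB arrays was 2.28%, against 1 of 30 members. Isg15 had log2 signals of 5.92, 5.94, 4.99, 4.65 and 4.87 with both vectors and was detected on 3 of these arrays, against 4.83, 4.86, 4.93 and 4.58, all undetected, with CEBPB. The calculated fold with both vectors was 1.21 (mean 5.27 against a measured 4.80, adjusted p = 0.0645). It is not a strict bound, because the undetected arrays with both vectors count at their measured signal. Rigi had 6.88, 6.77, 6.17, 5.80 and 6.69 with both vectors and 5.92, 5.71, 5.92 and 5.78 with CEBPB, a change of 0.67 (SE 0.21, adjusted p = 0.0692). Samd9l had a change of 1.42 (SE 0.46, adjusted p = 0.0739), and Ifitm2 had a change of -0.36 (SE 0.13, adjusted p = 0.117).

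The NSC members that stood furthest from control with CEBPB were Usp18, Ifi27, Oasl2 and Irf9. Usp18 had log2 signals of 5.73, 5.55, 5.53 and 6.92 with CEBPB and 8.97, 8.95, 5.15, 4.64 and 8.01 with both vectors, against 6.08, 5.85, 6.12, 7.06 and 8.51 in controls. Its changes were -2.13 with CEBPB (SE 1.07, adjusted p = 0.612) and -0.87 with both vectors (SE 0.98, adjusted p = 0.725). Its plain means were 7.14 with both vectors and 6.72 in controls, of the opposite sign to the slide-adjusted change. The CEBPB arrays overlapped the controls, and the arrays with both vectors ran from below the lowest control to above the highest.

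Oasl2 had log2 signals of 5.49, 5.50, 5.40 and 4.98 with CEBPB and 8.64, 8.54, 4.90, 4.56 and 7.55 with both vectors, against 6.18, 5.72, 5.28, 5.02 and 8.28 in controls. Its CEBPB change was -1.83 (SE 1.08, adjusted p = 0.696). Irf9 had 6.69, 6.71, 6.91 and 6.47 with CEBPB and 8.32, 8.27, 6.55, 6.22 and 8.16 with both vectors, against 7.0, 6.87, 7.11, 7.29 and 8.20 in controls. Its CEBPB change was -1.32 (SE 0.52, adjusted p = 0.456), and only CEBPB replicate 3 lay within the control range. Lgals3bp had an NSC change of -1.26 with CEBPB (SE 0.39, adjusted p = 0.294), with 6.84, 7.0, 7.28 and 7.35 against 6.56, 6.56, 7.23, 8.35 and 8.52 in controls.

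With both vectors the NSC members furthest from control were Ifitm3, Usp18, Rsad2 and Samd9l. Ifitm3 had log2 signals of 10.23, 10.21, 7.28, 8.08 and 9.79 with both vectors, against 9.34, 9.22, 8.10, 9.28 and 10.24 in controls (change -0.89, SE 0.72, adjusted p = 0.592). Rsad2, which makes a nucleotide that ends viral RNA chains, had 8.12, 8.20, 5.97, 4.57 and 7.94 with both vectors, against 6.84, 6.71, 6.94, 6.69 and 8.16 in controls (change -0.83, SE 0.72, adjusted p = 0.624). Samd9l had 9.55, 9.51, 7.36, 6.04 and 8.23 with both vectors, against 7.52, 7.60, 6.77, 5.86 and 7.23 in controls (change 0.69, SE 0.59, adjusted p = 0.622). In all 3 the arrays with both vectors spread over a wider range than the controls, with replicates 1, 2 and 5 above replicates 3 and 4.

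With STAT3C alone the NSC arrays kept close to the controls. Ifitm3 had log2 signals of 10.03, 9.96, 9.91 and 9.52 with STAT3C, against 9.34, 9.22, 8.10, 9.28 and 10.24 in controls (change 0.68, SE 0.55, adjusted p = 0.878). Ifitm1 had 9.16, 9.26, 9.04 and 9.0 with STAT3C, against 8.39, 8.63, 7.73, 8.65 and 9.29 in controls (change 0.63, SE 0.38, adjusted p = 0.854). In both genes the STAT3C arrays lay above 4 of the 5 controls and below control replicate 5. Cmpk2, a mitochondrial nucleotide kinase, was 7.18, 7.02, 7.18 and 6.66 with STAT3C, against 7.16, 7.05, 6.14, 6.36 and 6.41 in controls (change 0.32, SE 0.31, adjusted p = 0.888). Eif2ak2 was 9.29, 9.55, 9.48 and 9.09 with STAT3C, against 9.04, 9.27, 8.67, 8.70 and 9.46 in controls (change 0.31, SE 0.29, adjusted p = 0.887).

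Within NSC groups the median member differed between arrays. The median member lay 0.73, 0.71 and 0.53 above the control mean on STAT3C+CEBPB replicates 1, 2 and 5, and at -0.45 and -0.50 on replicates 3 and 4. In the controls it was 0.82 on replicate 5 and -0.29 to -0.07 on the others. Control replicate 5 was the highest control for 21 of 30 members (70%), against 27.9% of all genes. Across the tested genes outside the interferon lists it correlated best with STAT3C+CEBPB replicate 5 (r = 0.9778), which lay on the same slide. STAT3C+CEBPB replicates 1 and 2 correlated at 0.9977, the highest value among the NSC arrays, beside 0.9971 for STAT3C replicates 1 and 3. Without control replicate 5 the median member change was 0.14 with STAT3C and -0.22 with CEBPB, where 23 of 30 members had a negative change. With both vectors the median was 0.00, and 1 of 30 members passed, against 4.16% of all genes. That member was Ifitm2, lower with both vectors. Of 12 microglia and macrophage markers 10 had a probe, and their summed NSC signal was 98.8 to 122 with STAT3C, 100 to 160 with CEBPB and 96.6 to 176 with both vectors, against 81.5 to 148 in controls. The highest sums were 176 on STAT3C+CEBPB replicate 5, 160 on CEBPB replicate 4 and 148 on control replicate 5. Cx3cr1, Ptprc, Tyrobp, C1qa, C1qb and C1qc were not detected on any NSC array. Of the 10 markers, arrays detected 2 to 3 with STAT3C, 3 to 4 with CEBPB and 2 to 4 with both vectors, against 0 to 3 in controls. The summed fibroblast, pericyte and meningeal markers were 197 to 3042 with STAT3C, 202 to 849 with CEBPB and 208 to 4199 with both vectors, against 152 to 3390 in controls. The part of these markers in the results was not tested.

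The other NSC comparisons set the transduced groups against STAT3C. With both vectors against STAT3C alone, 0 of 30 members passed and 2 were lower at an unadjusted p below 0.05, while 0.341% of all genes passed and 5.98% were lower at that p. Ifitm2 had the smallest adjusted p there (change -0.78, SE 0.19, adjusted p = 0.0944), and Irgm1 was the 1 member of 30 whose arrays did not overlap, against 3.1% of all genes that were wholly lower. Irgm1, a GTPase that guards self membranes, was 11.45, 11.62, 11.17, 11.70 and 11.69 with both vectors and 11.90, 11.87, 11.87 and 11.88 with STAT3C (change -0.29, SE 0.23), while its 2 dimmer probes gave -0.09 and -0.03. With CEBPB against STAT3C, 0 of 30 passed and 5 were lower at an unadjusted p below 0.05 (2.65% of all genes), while 0.00921% of all genes passed. Gbp3 and Oasl2 had arrays wholly below those of STAT3C, against 2.23% of all genes. Overlap, also that of Irgm1, was read from values not adjusted for slide. STAT3C shared only slide 6 with the other groups named here. That slide held 1 STAT3C array, 1 CEBPB array and 2 arrays with both vectors. It alone links these groups in the slide-adjusted changes, and its STAT3C and CEBPB arrays were among those that lacked Xist. The departure from the sum of the single changes had a median of 0.34 over the members, 0 of 30 passed (0.0368% of all genes), and 3 were positive and 1 negative at an unadjusted p below 0.05, against 6.17% and 8.01% of all genes.

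The level of the members without either factor was compared between C17.2 and NSC controls in a joint fit of all 34 arrays, in which 31 members were tested of 11713 genes. Of these, 15 differed, 6 higher and 9 lower in C17.2, while 48.5% of all genes differed, 24.3% higher and 24.2% lower. The members' share is close to that of all genes, and nothing about the list is read from it. Rsad2, Usp18, Stat2 and Oasl1 were detected on 0 C17.2 controls and Cmpk2 on 1, and they entered the test through NSC arrays where they are high, so the filter set their direction. No slide held both cell types, so slide and cell type cannot be told apart here. The members higher in C17.2 included all 3 IFITM genes. Ifitm1 was 10.74, 10.69, 11.29 and 10.76 in C17.2 and 8.32, 8.56, 7.63, 8.58 and 9.26 in NSC (difference 2.40, SE 0.44, 5.28-fold, adjusted p = 4.92e-05), with no overlap. Ifitm3 differed by 2.28 (SE 0.58, adjusted p = 0.00159) and Ifitm2 by 1.59 (SE 0.25, adjusted p = 4.57e-06). Irgm1 was 13.23, 12.86, 13.25 and 13.29 in C17.2 and 11.89, 11.90, 11.12, 11.71 and 12.25 in NSC (difference 1.38, SE 0.17, adjusted p = 3.98e-08). Irf1, a transcription factor of the type II response, was 1.36 higher and Ifi35, an antiviral regulator, 1.41 higher (SE 0.26 and 0.25, adjusted p = 6.93e-05 and 2.11e-05). Only 1 of 5 NSC controls detected Ifi35, so its difference is a fitted value against mostly undetected arrays.

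**Figure D5:**
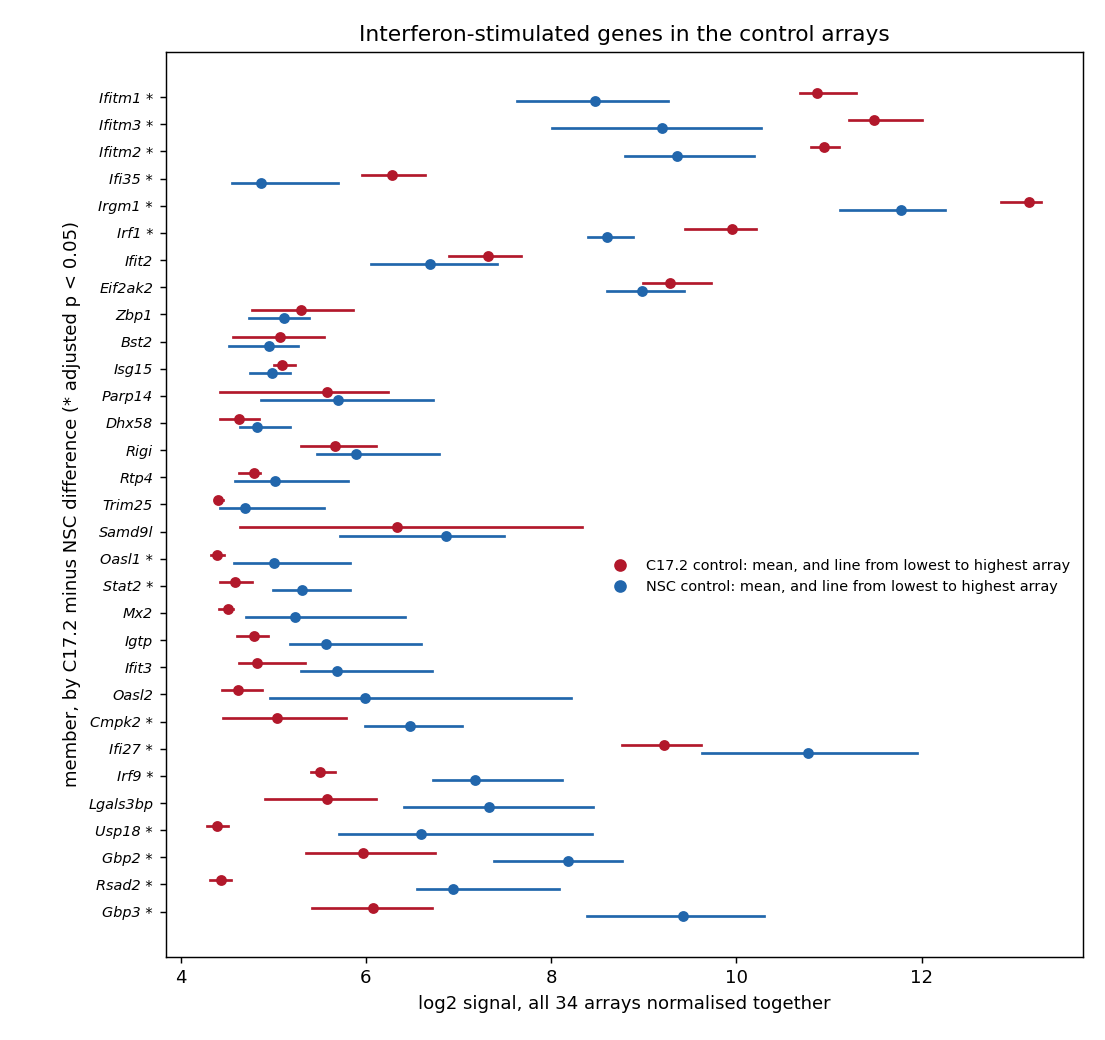
Log2 signals of the tested members in the controls after joint normalisation, with the mean as a point and a line from the lowest to the highest array, for C17.2 (4 arrays) and NSC (5 arrays), and a star where the adjusted p was below 0.05. The IFITM genes, Irgm1, Irf1 and Ifi35 are higher in C17.2, and Gbp2, Gbp3, Rsad2, Usp18, Irf9, Cmpk2, Ifi27, Stat2 and Oasl1 are lower.

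The 9 members lower in C17.2 were GTPases of the GBP family, effectors, and Irf9 and Stat2 of the ISRE-binding complex. Gbp3 was 6.71, 6.39, 5.42 and 5.79 in C17.2 and 9.45, 9.45, 10.3, 8.39 and 9.54 in NSC (difference -3.34, SE 0.64, adjusted p = 7.76e-05), and Gbp2 differed by -2.21 (SE 0.78, adjusted p = 0.0202). Rsad2 was not detected on the C17.2 controls, at 4.43, 4.54, 4.32 and 4.49, and was 6.7, 6.57, 6.81, 6.55 and 8.08 in NSC, at least 3.48-fold lower in C17.2 (means 4.44 and 6.94, adjusted p = 0.000198). Usp18 was likewise undetected in C17.2, at 4.38, 4.51, 4.29 and 4.40, against 5.93, 5.71, 5.97, 6.93 and 8.44 in NSC, at least 2.74-fold lower (means 4.39 and 6.60, adjusted p = 0.0363). Both Rsad2 and Usp18 were highest on NSC control replicate 5, and their ranges did not overlap between the cell types. Irf9 differed by -1.66 (SE 0.44, adjusted p = 0.00263), Ifi27 by -1.54 (SE 0.62, adjusted p = 0.0385) and Cmpk2 by -1.44 (SE 0.36, adjusted p = 0.00132). Stat2 was undetected in C17.2 controls and at least 1.13-fold lower there (means 4.59 and 5.31, adjusted p = 0.0291). Oasl1, also undetected there and detected on only 2 of 5 NSC controls, allowed no fold (means 4.39 and 5.01, adjusted p = 0.0109). Without NSC control replicate 5 the count of members that differed was 11, while 46.3% of all genes differed. Without the C17.2 STAT3C+CEBPB replicate 4, which enters only the shared spread, the count was 18, while 49% of all genes differed.

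The same fit tested whether a vector changed a member differently in the 2 cell types, and 0 of 31 members passed for STAT3C, CEBPB or both vectors. The share of all genes that passed was 0.0256%, 1.49% and 1.33%, and at an unadjusted p below 0.05 the members numbered 4, 3 and 4, all higher in C17.2, against 4.47%, 8.36% and 7.6% of all genes. The C17.2 change minus the NSC change had a member median of 0.27, 0.43 and 0.65, against -0.02, -0.01 and 0.01 over all genes. With each array left out in turn these medians ran from 0.08 to 0.32, 0.26 to 0.50 and 0.11 to 0.95. The lowest value for STAT3C and for CEBPB came without NSC control replicate 5. For both vectors it came without C17.2 STAT3C+CEBPB replicate 4, so the 0.65 rests largely on that array. Trim25 had the smallest adjusted p, with a difference of 3.62 for CEBPB (SE 1.05, adjusted p = 0.0673). Its probe was detected on 1 NSC array only and on 0 C17.2 controls. It entered the test through transduced C17.2 arrays where it is high, so the filter set its direction, also in the CEBPB count. The difference is a fitted value in which undetected arrays count at their measured level, and nothing is read from it. Bst2 differed by 1.81 for CEBPB (SE 0.60, adjusted p = 0.107) and Lgals3bp by 3.23 (SE 1.14, adjusted p = 0.123).

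The genes that run the interferon pathway were followed as a list of 32, of which 21 were tested in each cell type. The ligands Ifnb1, Ifna4, Ifng and Ifnl3 were not detected on any array, and Ifna2 was detected on 1 NSC array. The Ifnar1 probe was not detected on any array. The other receptor chain, Ifnar2, averaged 6.33 with STAT3C, 5.79 with CEBPB and 6.02 with both vectors, against 6.06 in C17.2 controls, and 5.94, 5.72 and 6.01, against 5.72 in NSC controls. Ifngr1, a chain of the type II receptor, was 6.24, 6.62, 8.15 and 7.55 with STAT3C, 8.26, 8.08, 6.76 and 7.52 with CEBPB and 6.67, 7.98, 7.76 and 7.14 with both vectors, against 6.52, 6.08, 6.19 and 6.08 in C17.2 controls. The CEBPB and the STAT3C+CEBPB arrays lay above all controls, but the changes of 1.44 (SE 0.41, adjusted p = 0.0707) and 1.17 (SE 0.41, adjusted p = 0.174) did not pass. In NSC Ifngr1 averaged 6.51 with STAT3C, 6.62 with CEBPB and 6.43 with both vectors, against 6.37 in controls.

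The kinases and the transduced factors themselves gave 0 calls. Jak1 averaged 5.19 with STAT3C, 5.29 with CEBPB and 5.56 with both vectors, against 5.68 in C17.2 controls, and 8.18, 8.04 and 8.18, against 8.0 in NSC controls. Tyk2 averaged 6.50, 5.97 and 6.24, against 6.36 in C17.2 controls, and 7.16, 7.21 and 7.37, against 7.21 in NSC controls. Stat3 averaged 10.01 with STAT3C and 9.25 with both vectors, against 9.59 in C17.2 controls, and 10.87 and 10.71, against 10.61 in NSC controls. Cebpb averaged 10.26 with CEBPB and 10.59 with both vectors, against 9.89 in C17.2 controls, and 8.26 and 8.22, against 8.57 in NSC controls. Whether these probes can bind the transcripts of the vectors was not tested. Socs3, an inhibitor induced by STAT3, averaged 9.82 with STAT3C, 9.14 with CEBPB and 9.56 with both vectors, against 9.12 in C17.2 controls, and 8.48, 7.85 and 7.87, against 8.33 in NSC controls. In C17.2 with both vectors the median was 9.12 and the highest array 11.05 for Socs3, and 8.92 and 10.71 for Stat3. The C17.2 STAT3C arrays lay above all controls for Socs3 (change 0.70, SE 0.34, adjusted p = 0.411) and Stat3 (change 0.42, SE 0.35, adjusted p = 0.64). The CEBPB arrays lay below all controls for Stat3 (change -0.53, SE 0.35, adjusted p = 0.388).

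Of the pathway list, 2 genes passed in NSC, where 1 of 21 passed for both vectors against control (2.84% of all genes) and 2 of 21 for both vectors against CEBPB (6.47%), and 0 passed in C17.2. Ptpn2, a phosphatase that removes phosphate from JAK kinases and STATs, rose with both vectors, with log2 signals of 6.88, 6.92, 7.0, 5.17 and 6.10 with both vectors and 6.08, 6.14, 6.21 and 5.07 with CEBPB, against 6.10, 6.07, 6.52, 4.87 and 5.02 in controls. The slide-adjusted change was 0.79 against control (SE 0.20, adjusted p = 0.0437) and 0.72 against CEBPB (SE 0.15, adjusted p = 0.0118), with arrays that overlapped in both. Il10rb, a receptor chain shared by type III interferons and interleukin 10, was 5.60, 5.60, 5.76, 5.27 and 5.81 with both vectors and 5.07, 4.88, 5.21 and 4.73 with CEBPB, and it rose by 0.66 (SE 0.16, adjusted p = 0.0233) with no overlap. Of the further list of interferon-stimulated genes, 30 were tested in C17.2 and 28 in NSC, and 0 passed in limma in any comparison. At an unadjusted p below 0.05, 9 of 30 were higher and 0 lower with both vectors against control in C17.2 (9.67% and 8.11% of all genes), and 3 of 28 were higher and 2 lower in NSC (9.59% and 7.74%).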

How the data were processed

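The submitters scanned 34 arrays, with 200 ng of RNA each. The deposited tables give, per the file headers, each probe's mean bead intensity (background-subtracted, since values below 0 occur, and not normalised between arrays), its detection p-value and the count of beads behind it, at least 18 for any member's probe. BeadStudio and lumi are named in the submitters' processing notes. The authors' processed values, on a log2 scale as found by comparison with the intensities, served as an alternative, and their normalisation is not given in the sources used here. Depth does not apply to arrays, whose number limits the precision.

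Intensities were background-corrected and quantile-normalised with neqc (limma 3.58.1 in R 4.3.3, offset 16), separately in C17.2 and NSC and together for comparisons between them. Of 45281 probes, 34885 carried 1 gene symbol, 18 several and 10378 none. Probes with a detection p under 0.05 on 4 or more arrays entered the fit, the brightest standing for its gene. In C17.2, 5 members had several detected probes and in NSC 9. Groups were compared with limma's lmFit and eBayes, with slide as a term in NSC, and p-values were adjusted by the Benjamini-Hochberg method over all genes tested. Where a group detected a probe on 0 arrays, the fold is the mean of the brighter group over the higher of the lowest detected signal and the probe's own signal. It is a lower bound only where the brighter group detected the probe on every array. The fit was tested on simulated data. No pair of arrays was identical (0 pairs), and 0 columns were left out. Members and lists were chosen with earlier results of these data known. Values on every array were given for each member past the adjusted threshold in any comparison and, in each comparison with control, for up to 4 members with the largest change among those whose arrays did not overlap, filled up to 4 by the largest changes. Promoters were searched with Python 3.11.15. Alternatives were median scaling, the authors' values, other detection filters, array weights, other slide terms and leaving out each array.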

Additional observations from a re-analysis of the deposited data

Results flagged for a closer look

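Within groups of 4 or 5 arrays, 7 values of the members described array by array, and 1 array median, stood far from the rest of their group by Dixon's criterion, which chance meets in about 1 of 20 groups. In C17.2, Lgals3bp was 6.75 on CEBPB replicate 3, against 8.78 to 9.06 on the other CEBPB arrays. Ifit3 was 10.03 on STAT3C+CEBPB replicate 4, against 4.79 to 5.53 on the others of its group, and 5.20 on control replicate 2, against 4.62 to 4.67 on the other controls. In NSC, Ifi27 was 12.45 on STAT3C replicate 4, against 9.81 to 10.05. On CEBPB replicate 4, Ifitm3 was low at 7.80, against 9.66 to 9.75, and Usp18 was high at 6.92, against 5.53 to 5.73. Rsad2 was 8.16 on control replicate 5, against 6.69 to 6.94, and the median member on that array lay 0.82 above the control mean, against -0.29 to -0.07 on the other controls. The share of tested members that stood apart in this way in C17.2 was 4.35% with STAT3C (4.21% of all genes), 8.7% with CEBPB (9.43%) and 26.1% with both vectors (5.13%), against 13% in controls (5.7%). In NSC it was 6.67% with STAT3C (18.2% of all genes), 13.3% with CEBPB (15.1%) and 0% with both vectors (9.7%), against 16.7% in controls (7.91%).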

How the results depend on the processing

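No paired analysis was possible because the labels give the arrays no replicate numbers. Of the counts of called members, 144 of 165 under an alternative stayed within 1.5 times the value given above, and 164 of 165 medians stayed within their spread. Of 248 values of named members, 238 kept their call, with a change of sign counted here only where a value was called. No called value changed sign. With the settings that left out 1 array added, 12 of 539 medians and 3 of 674 values of named members changed sign, all uncalled. Without STAT3C+CEBPB replicate 4 the 3 C17.2 medians other than against control turned, as their ranges show. In NSC the median of both vectors against control was -0.15 and became 0.18 with no slide term and 0.19 without STAT3C+CEBPB replicate 4, and that against STAT3C turned under the same settings. The NSC STAT3C median, 0.03, turned under 4 settings, to between -0.10 and -0.02, and the C17.2 median of CEBPB against STAT3C became -0.03 with array weights. Of the named members Usp18 turned under 2 settings and Rsad2 under 1, both for both vectors against control in NSC. With array weights the called members numbered 1 for STAT3C (2.76% of all genes) and 4 for CEBPB (25.7%) against control in C17.2. In NSC they numbered 1 for CEBPB against control (0.0737%), 1 for both vectors against STAT3C (1.18%), 20 for both vectors against CEBPB (39%), 2 for CEBPB against STAT3C (0.221%) and 13 for the departure from additivity (22.3%). The NSC count of both vectors against CEBPB was 0 with median scaling, the authors' deposited values, no detection filter, slide as a random block or no slide term, and 4 within slide 5 (19.6% of all genes). With no slide term the NSC median of both vectors against STAT3C was 0.25. Without the 4 NSC arrays that lacked Xist, an alternative chosen after seeing the data, the NSC counts were 1 for CEBPB (0.902%) and 1 for both vectors (3.66%) against control, 6 for both vectors against CEBPB (18%) and 1 for the departure from additivity (6.36%). With the lack of Xist as a term beside slide, also chosen after seeing the data, they were 2 for both vectors against control (8.28%), 1 against STAT3C (2.07%) and 4 against CEBPB (13.6%), Ifi27 among them. With median scaling the CEBPB difference between cell types called 1 member (5.94%). The cause of these shifts was not tested.

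With each array left out in turn, counts ran from 0 to 2 for CEBPB (2 without CEBPB replicate 3, where 9.57% of all genes passed) and 0 to 3 for both vectors (3 without STAT3C+CEBPB replicate 1, 4.49%) against control in C17.2. In NSC they ran from 0 to 1 for both vectors against control (1 without STAT3C+CEBPB replicate 4, 5.26%, or control replicate 5, 4.16%). Against STAT3C they ran from 0 to 1 (1 without the same arrays, 1.74% and 1.32%), and against CEBPB from 0 to 7 (7 without STAT3C+CEBPB replicate 4, 10.6%). Between cell types they ran from 0 to 3 for CEBPB (3 without C17.2 CEBPB replicate 3, 7.05%). For both vectors they ran from 0 to 2 (2 without C17.2 STAT3C+CEBPB replicate 1, 3.63%). For the controls they ran from 11 (46.3% of all genes) to 18 (49%). Medians ran from 0.32 to 1.09 for both vectors against control in C17.2, -0.04 to 0.86 against STAT3C, -0.21 to 0.70 against CEBPB and -0.50 to 0.30 for the departure from additivity. In NSC they ran from -0.10 to 0.14 for STAT3C, -0.71 to -0.22 for CEBPB and -0.35 to 0.19 for both vectors against control, -0.50 to 0.24 for both vectors against STAT3C and 0.16 to 0.56 against CEBPB. Probes near background limit the folds of dim members, and 16 members in C17.2 and 9 in NSC could not be tested.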
